A study of Mus musculus with 6 samples.

Results

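A set of CpGs had low measured methylation in mESCs and was methylated in both kinds of mouse induced pluripotent stem cell, C-iPSCs and 4F-iPSCs. These members were chosen by their measured methylation levels. Reads were summed over the 2 replicate libraries of each cell type, and the level of a CpG is the share of its reads called methylated. Autosomal CpGs needed 10 or more summed reads per cell type, and a CpG was a member when its level was under 10% in mESCs and at least 40% in both C-iPSCs and 4F-iPSCs. Of 1073684 compared autosomal CpGs, 1887 were members, or 0.176%. Members at most 300 bp from the next were grouped, which gave 1470 single CpGs, 116 pairs with 232 CpGs, and 52 runs of 3 or more with 185 CpGs. Single CpGs were kept apart because a cytosine that a mouse strain carries as thymine is also read as unmethylated, and genotypes were not analysed here.

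The study set mESCs beside iPSCs made in different ways to ask how alike their DNA methylation is, and it used reduced representation bisulfite sequencing (RRBS), in which unmethylated cytosines are read as thymine, for 2 libraries of each of the 3 cell types. The libraries held between 53694199 and 96534037 reads on CpGs. C-iPSCs were induced with small molecules, among them, at 1 stage, DZNep and the methylation inhibitor 5-aza-2′-deoxycytidine. 4F-iPSCs were induced with retroviral Oct4, Sox2, Klf4, and c-Myc. Both came from OG2-MEFs, fibroblasts with a fluorescent reporter for Oct4 that were made with mice of the strains 129S4/SvJaeJ, C57BL/6J, and CBA/CaJ. Colonies of both were picked when GFP-positive, and the cells were at passages 5 to 10. The mESCs were of the line E14, which does not come from C57BL/6J, the strain of the reference sequence, and were at passages 20 to 30. All cells were male and grown with LIF and 2i, that is 3 μM CHIR99021 and 1 μM PD0325901, and the labels place them on MEF feeder layers that were taken away before collection, whereas the methods name gelatin. How the strains were combined, how many clones were used, and whether replicates were separate cultures is not given in the sources used here, so the spread between replicate libraries may be technical. Fisher's exact test, used for calls at single CpGs, ignores that spread and covers the counting error of reads only.

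Methylation of CpGs is copied at cell division by maintenance methyltransferases and set anew by de novo methyltransferases. In pluripotent cells grown with 2i much of it is lost, while CpG-rich promoters lack it in most cell types. Reprogrammed cells can differ from embryonic stem cells at CpGs where methylation was gained or kept on the way from the somatic cell.

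The 5 runs with the most members are shown because neighboring CpGs there carried the pattern together. Sequences are GRCm38, plus strand, with the member CpGs in capitals and 10 more bases on each side. They lie at chr7:29212647-29212907, chr13:65982844-65982976, chr5:52902432-52902478, chr8:78129751-78129816, and chr5:117294291-117294394, in the order given. Within the Catsperg1 run a stretch of 46 bases occurred 2 times.
Catsperg1 intron: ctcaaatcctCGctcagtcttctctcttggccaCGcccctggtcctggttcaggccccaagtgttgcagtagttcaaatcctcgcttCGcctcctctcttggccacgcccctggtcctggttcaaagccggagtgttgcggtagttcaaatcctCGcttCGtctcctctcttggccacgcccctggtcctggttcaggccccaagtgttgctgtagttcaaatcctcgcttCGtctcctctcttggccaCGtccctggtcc
Gm40987 promoter: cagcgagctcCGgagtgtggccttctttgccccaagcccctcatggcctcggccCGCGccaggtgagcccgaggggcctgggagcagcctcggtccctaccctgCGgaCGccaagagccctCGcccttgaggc
run nearest to Gm43664: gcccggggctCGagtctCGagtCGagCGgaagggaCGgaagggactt
run nearest to Gm45288: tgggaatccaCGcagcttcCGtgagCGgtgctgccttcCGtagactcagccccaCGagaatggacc
Gm3786 promoter: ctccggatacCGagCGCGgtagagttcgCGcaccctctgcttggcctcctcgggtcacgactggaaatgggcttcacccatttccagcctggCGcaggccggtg

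The 6 single members with the most reads, by the lowest of their 3 summed counts, are shown with 21 bases each, the CpG in capitals, because their levels had the smallest counting error. None of them is within a CCGG site, where MspI cuts. They lie at chr5:119598277-119598297, chr9:90135933-90135953, chr5:119723517-119723537, chr6:51382716-51382736, chr1:136043096-136043116, and chr3:95338765-95338785.
Gm43399 promoter: atgtggtgtgCGctgtgcctg
single nearest to Gm6223: gtcatctcatCGtcaatttcc
single nearest to Tbx3os2: tttcctgaaaCGcagggatag
Gm6559 region: aaagtatcagCGgtcaaaaca
single nearest to Ascl5: ccatcaatgaCGtctgagtct
Setdb1 coding exon: gttcttgcccCGatactgttc

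Members were rare among the CpGs of either kind that the rule joins. Of 572713 CpGs under 10% in mESCs, 0.329% were members, and of 356667 CpGs at 40% or more in both iPSC types, 5.29 in 1000 were. Almost every CpG low in mESCs and methylated in C-iPSCs was also methylated in 4F-iPSCs: 2031 CpGs reached 40% in C-iPSCs, and 144 of these did not in 4F-iPSCs. The other way round, 6490 were at 40% or more in 4F-iPSCs, and 4603 of them did not reach it in C-iPSCs. The mirror pattern, 40% or more in mESCs and under 10% in both iPSC types, was found at 7 CpGs. All comparisons between the iPSC types and mESCs share the same 2 mESC libraries.

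The levels of the members, which the rule fixed and which are given as a description, were intermediate in C-iPSCs and higher in 4F-iPSCs. Over the 1470 single members the median levels were 0.966% and 7.5% in mESC replicates 1 and 2, 46.9% and 54% in those of C-iPSCs, and 75% and 71.1% in those of 4F-iPSCs. Over the 185 members in runs they were 2.63% and 7.23% in mESC replicates 1 and 2, 57.1% and 65.8% in those of C-iPSCs, and 86.4% and 84.6% in those of 4F-iPSCs. Levels of at least 80% in 4F-iPSCs were found at 37.8% of single members and at 66.5% of members in runs, and in C-iPSCs at 2.45% and 13.5%. Averaged over members, the library means were 5.49% ± 3.07 (SD, n = 2) for mESCs, 53.9% ± 4.92 for C-iPSCs, and 73.5% ± 2.36 for 4F-iPSCs. The members had a median of 59 summed reads in mESCs, against 97 for C-iPSCs and 133 for 4F-iPSCs.

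**Figure D1:**
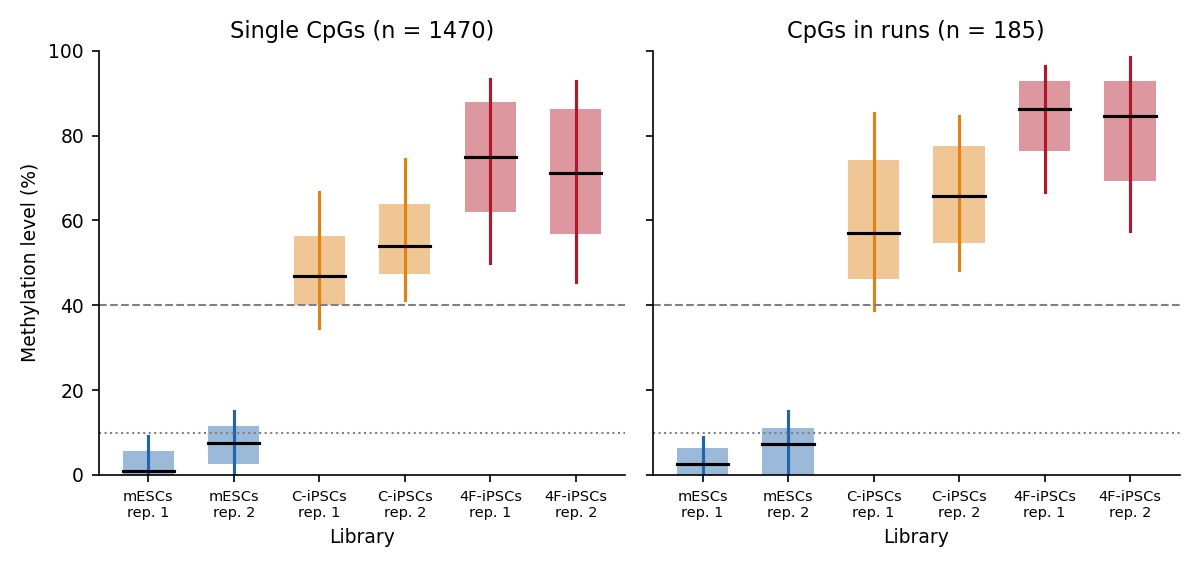
Methylation levels of members in each library, for single CpGs and CpGs in runs. Black lines are medians, boxes reach from the 25th to the 75th percentile, whiskers from the 10th to the 90th, and the dotted and dashed lines are the limits of the rule. The median of single CpGs was 0.966% in mESC replicate 1 and 7.5% in replicate 2.

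The 2 mESC libraries did not give the same picture, and replicate 2 was the higher one. At the 1312 members with at least 10 reads in each of the 6 libraries, replicate 2 was above replicate 1 at 1053 and below it at 161. The limit of 10% was met by 96.6% of these members in mESC replicate 1 and by 64.1% in replicate 2. The limit of 40% was met by 74.1% and 96.2% in C-iPSC replicates 1 and 2, and by 99.4% and 97.3% in those of 4F-iPSCs. Every library met its limit at 593 members, or 45.2%. Without mESC replicate 2 the rule gave 3512 members in place of 1887, with 2694 single CpGs and 90 runs of 330 CpGs.

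Methylated reads of replicate 2 were also counted where replicate 1 had none, as a description. Among CpGs at 40% or more in both iPSC types with at least 50 reads in mESC replicate 1 and 30 in replicate 2, 130 had 0 methylated reads in replicate 1. They were chosen for that, so replicate 2 could only be equal or higher there, and CpGs chosen for 0 in replicate 2 were not read. Their median level in replicate 2 was 5.88%, with a 10th percentile of 2.37% and a 90th of 10.4%, and 124 of them had a methylated read there. By comparison, at the 501484 CpGs under 10% in all 3 cell types, 0.646% of reads in mESC replicate 1 and 0.729% in replicate 2 were called methylated. The source of the methylated reads in replicate 2 was not tested.

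Members lay at the low end of a range of mESC levels that had no gap at the limit of 10%. In the steps of 2 percentage points from 0 to 10%, the 1887 members numbered 380, 320, 330, 376, and 481. Those with at least 50 mESC reads numbered 178, 243, 181, 187, and 267, so that the shape at the low end changed with the read minimum. Among CpGs at 40% or more in both iPSC types with at least 50 mESC reads the numbers rose past the limit, to 436 from 10 to 12% and 1952 from 18 to 20%. Of the members with at least 50 mESC reads, those under 6% in mESCs had higher levels in 4F-iPSCs than those from 6 to 10%. Their median 4F-iPSC level was 81.2% for those under 2% in mESCs and 85% for those from 2 to 4%, against 73.9% for those from 6 to 8% and 66.5% for those from 8 to 10%. In C-iPSCs the same medians were 49.7%, 51.6%, 47.5%, and 45.3%.

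**Figure D2:**
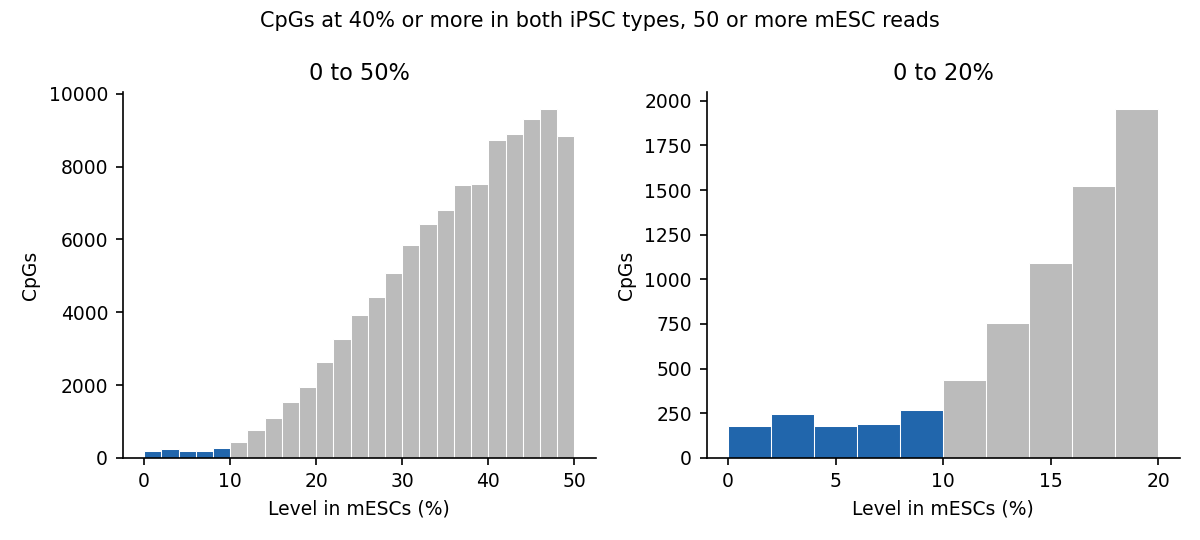
Levels in mESCs of CpGs at 40% or more in both iPSC types, with at least 50 mESC reads, as numbers of CpGs in steps of 2 percentage points, from 0 to 50% and enlarged from 0 to 20%. Members are blue. The numbers are 178, 243, 181, 187, and 267 in the steps from 0 to 10%, and reach 1952 between 18 and 20%.

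Many CpGs stood close to the limits. Of the 3 members nearest to a limit, 1 was nearest to Adpgk, with 3 of 98 reads methylated in mESCs, 106 of 265 in C-iPSCs, and 388 of 521 in 4F-iPSCs, which puts C-iPSCs at the limit. Another was nearest to Gm42883, with 1 of 12 reads methylated in mESCs, 81 of 175 in C-iPSCs, and 158 of 395 in 4F-iPSCs, and the last nearest to Gm40578, with 13 of 143 reads methylated in mESCs, 36 of 90 in C-iPSCs, and 133 of 229 in 4F-iPSCs. Just outside, with 10% in mESCs, was a CpG nearest to Sstr1, with 9 of 90 reads methylated in mESCs, 332 of 369 in C-iPSCs, and 335 of 342 in 4F-iPSCs. The other 2 outside, also with 10% in mESCs, were nearest to Tnfrsf19, with 41.9% for C-iPSCs and 58.3% for 4F-iPSCs, and nearest to Gm48732, with 6 of 60 reads methylated in mESCs, 132 of 238 in C-iPSCs, and 331 of 437 in 4F-iPSCs. Within 2 percentage points of the mESC limit, 481 members lay below it and 775 CpGs that met the other limits lay above it. At the C-iPSC limit the corresponding numbers were 254 members and 200 other CpGs, and at the 4F-iPSC limit 32 and 19.

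To read the pattern in libraries that had no part in the choice, CpGs were selected by the same limits in replicates 1 alone and then read in replicates 2. Of 934415 CpGs that had 10 reads or more in all 6 libraries, 2175 were selected. In replicates 2, 593 of them met the rule again, or 27.3% (95% Wilson interval 25.4 to 29.2%), against 0.186% of all compared CpGs. The interval covers counting error only, and with the rule met on each strand the share was 10.2% of 283. The limit for C-iPSCs was met by 89.2%, that for 4F-iPSCs by 96.5%, and that for mESCs by 30.9%. The median levels in replicates 2 were 16.1% in mESCs, with 55.7% for C-iPSCs and 72.7% for 4F-iPSCs. Levels thus stood in the order of the rule, while the mESC median was above the 5.71% of the libraries used to select. By Fisher's exact test between the 2 libraries, with a difference above 33.3 percentage points and an unadjusted p under 0.05, 1331 of the 2175 were higher in C-iPSC than in mESC replicate 2 (61.2%, against 4.77% of all CpGs tested). For 4F-iPSC replicate 2 the count was 1695 (77.9%, against 11.1%). These tests compare libraries and not conditions.

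Selection in replicates 2 and reading in replicates 1 gave 1736 CpGs, of which 593 met the rule again (34.2%, against 0.233% of all compared CpGs). Here the mESC limit was met by 60.4% and the C-iPSC limit by 46.4%. Median levels in replicates 1 were 6.73% in mESCs, with 38.6% for C-iPSCs and 66% for 4F-iPSCs. Called higher than mESC replicate 1 were 759 CpGs in C-iPSC replicate 1 (43.7%, against 3.25% of all CpGs tested) and 1406 in 4F-iPSC replicate 1 (81.0%, against 16.3%). Thus most CpGs selected in replicates 1 were above the mESC limit in replicate 2, and most of those selected in replicates 2 were below the C-iPSC limit in replicate 1.

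CpGs in runs met the rule again in a larger share than single CpGs, while pairs did so in 1 direction only. Of CpGs selected in replicates 1, 26.2% of 1719 single CpGs (95% Wilson interval 24.2 to 28.4%) and 39.2% of 186 CpGs in runs (32.5 to 46.4%) met the rule in replicates 2, and 25.6% of 270 CpGs in pairs. In the reverse direction the shares were 32.3% of 1403 and 50.4% of 139, with 36.1% of 194 for pairs. As means over their CpGs, 19 of 50 runs selected in replicates 1 met the rule in replicates 2, and 18 of 38 in reverse. CpGs of a run share reads, so the intervals for runs are too narrow, and the difference between runs and single CpGs was not tested.

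**Figure D3:**
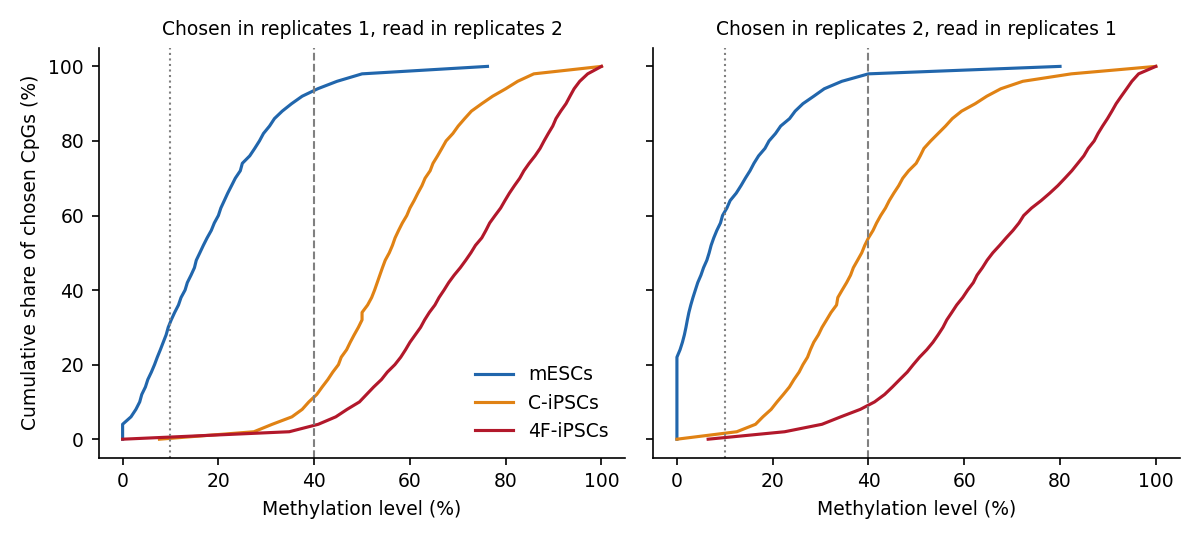
Cumulative share of CpGs, selected by the rule in 1 set of replicates, against their methylation level in the other set, for each cell type. Dotted and dashed lines mark 10% and 40%. The mESC curve reaches 30.9% at the 10% limit on the left and 60.4% on the right.

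The 52 runs were short, from 6 to 348 bp with a median of 49.5 bp, and 35 of them held 3 members. In all 52 the mean level of the members was higher in each of the 4 iPSC libraries than in both mESC libraries, as the rule favors. Both 4F-iPSC libraries were above both C-iPSC libraries in 41 runs, the libraries overlapped in 11, and the reverse order was found in 0. How often this order holds at other CpGs was not counted, so the split is not read as a trait of runs. Flanks of CpGs methylated in both iPSC types that were not members also averaged higher in 4F-iPSCs, with 80.6% against 68.5% for C-iPSCs. Outside annotated genes lay 31 runs, and 10 were in promoters, that is within 1 kb of a transcript start.

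The run with the most members, 7 of 12 compared CpGs at chr7:29212657-29212897, was in an intron of Catsperg1, a gene for a subunit of the sperm calcium channel CatSper, 1087 bp from its nearest start. Mean levels of its members were 3.9% and 6.61% in the mESC libraries, 46.1% and 67.6% in the C-iPSC libraries, and 78.5% and 71.7% in the 4F-iPSC libraries. The mESC libraries lay apart from the others, while C-iPSC replicate 2 came close to 4F-iPSC replicate 2. The summed reads at the 7 CpGs were 482, 634, and 660 in mESCs, C-iPSCs, and 4F-iPSCs, in that order.

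Of the other large runs, 3 with 5 or 6 members lay beside starts of genes known by a systematic name. The run of 6 at chr13:65982854-65982966 was 73 bp from the start of Gm40987 and had mean levels of 4.81% and 3.97% in the mESC libraries, 65.4% and 61.9% in the C-iPSC libraries, and 78.8% and 71.5% in the 4F-iPSC libraries. It was read more deeply in mESCs, with 456, 185, and 178 summed reads in mESCs, C-iPSCs, and 4F-iPSCs. The run of 5 at chr5:117294301-117294384 was 22 bp from the start of Gm3786 and had 3.67% and 8.27% in the mESC libraries, 43.9% and 57.3% in the C-iPSC libraries, and 71.8% and 71.6% in the 4F-iPSC libraries. At chr15:97166887-97167040, 202 bp from the start of Gm32885, the 5 members had 1.51% and 7.16% in the mESC libraries, 60.4% and 68.6% in the C-iPSC libraries, and 89% and 75.6% in the 4F-iPSC libraries. In all 3 promoters the C-iPSC libraries lay between mESCs and 4F-iPSCs.

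The other runs of 5 lay outside promoters. A run high in both iPSC types, in soft-masked sequence at chr5:52902442-52902468 and 16741 bp from Gm43664, had mean levels of 2.92% and 8.6% in the mESC libraries, 86.1% and 80.1% in the C-iPSC libraries, and 95.7% and 94.3% in the 4F-iPSC libraries, with 761, 1628, and 1804 summed reads in mESCs, C-iPSCs, and 4F-iPSCs. At chr8:78129761-78129806, 21801 bp from Gm45288, the levels were 3.98% and 5.88% in the mESC libraries, 58.3% and 61.9% in the C-iPSC libraries, and 81.8% and 77.2% in the 4F-iPSC libraries. The run at chr7:141924204-141924368 was 5697 bp from Tollip, which encodes an adaptor of Toll-like receptor signaling, and had 7.11% and 0% in the mESC libraries, 79.6% and 85.7% in the C-iPSC libraries, and 83.3% and 78.7% in the 4F-iPSC libraries. There the iPSC types overlapped. In an intron of Gm28729, at chr9:96490704-96490897, the levels were 0% and 3% in the mESC libraries, 67.5% and 73.3% in the C-iPSC libraries, and 88.4% and 92.5% in the 4F-iPSC libraries. The longest run, 348 bp at chr7:5441562-5441909, lay 12850 bp from the vomeronasal receptor gene Vmn1r59, held a stretch of 61 bases that occurred 2 times, and had 9.83% and 5.71% in the mESC libraries, 70.6% and 68.8% in the C-iPSC libraries, and 88.7% and 81.3% in the 4F-iPSC libraries from 75, 138, and 135 summed reads.

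In 4 runs of 4 members, both 4F-iPSC libraries were above both C-iPSC libraries by a wide margin, which is a description. At chr4:151145351-151145472, in a coding exon of Camta1, a gene for a calmodulin-binding transcription activator, the levels were 4.64% and 11% in the mESC libraries, 48.7% and 53.6% in the C-iPSC libraries, and 92.3% and 91.1% in the 4F-iPSC libraries. At chr2:170528261-170528362, 16334 bp from Gm16796, they were 3.75% and 8.5% in the mESC libraries, 39.6% and 52% in the C-iPSC libraries, and 81.9% and 85.6% in the 4F-iPSC libraries. Near Ust, a sulfotransferase gene, at chr10:8545016-8545047, they were 7.12% and 7.4% in the mESC libraries, 51% and 61.7% in the C-iPSC libraries, and 96% and 96.7% in the 4F-iPSC libraries, and near AC145590.1, at chr19:20082712-20082913, 0.543% and 8.05% in the mESC libraries, 53.9% and 54.2% in the C-iPSC libraries, and 87.1% and 88.3% in the 4F-iPSC libraries. The 4 other compared CpGs of the last run were not low in mESCs, with 96.7%, 66%, 74.5%, and 29.4%. The first of them was lower in both iPSC types, at 78.3% in C-iPSCs and 82.2% in 4F-iPSCs. By contrast, a pair of runs of 4 in soft-masked sequence near Gm38298, at chr3:6300319-6300336 and chr3:6300735-6300752, were high in both iPSC types. The first had 3.05% and 5.42% in the mESC libraries, 92.7% and 77.9% in the C-iPSC libraries, and 95.9% and 97.8% in the 4F-iPSC libraries, and the second, named after its values were seen, 4.72% and 0% in the mESC libraries, 93% and 85.6% in the C-iPSC libraries, and 92.2% and 97.5% in the 4F-iPSC libraries.

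In the promoter of AC116849.1, at chr19:56669162-56669414, the 4F-iPSC replicates stood apart from each other. The levels of its 4 members were 2.41% and 8.57% in the mESC libraries, 53.9% and 68% in the C-iPSC libraries, and 77.4% and 34.9% in the 4F-iPSC libraries, so that 4F-iPSC replicate 2 was below both C-iPSC libraries. The run of 4 at chr7:17800208-17800424, 212 bp from the start of Gm45149, had 2.5% and 5% in the mESC libraries, 64.9% and 86.3% in the C-iPSC libraries, and 84.4% and 96.7% in the 4F-iPSC libraries, from 55, 131, and 118 summed reads.

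The other runs in promoters had 3 members each. The run at chr7:6977376-6977412 lay 130 bp from a start of Zfp264, a zinc finger gene of the imprinted Peg3 domain, and had 3.38% and 10.1% in the mESC libraries, 33.8% and 60.04% in the C-iPSC libraries, and 66.8% and 60.6% in the 4F-iPSC libraries. The mean over all 15 compared CpGs of the Zfp264 promoter was 20.3% in mESCs, against 49.1% for C-iPSCs and 72.2% for 4F-iPSCs. At chr8:121541710-121541812, beside 1700018B08Rik, the levels were 6.27% and 8.53% in the mESC libraries, 55% and 59.5% in the C-iPSC libraries, and 84.8% and 83.4% in the 4F-iPSC libraries. In the promoter of AC113104.2, at chr18:82729953-82729994, they were 4.91% and 7.48% in the mESC libraries, 39.9% and 50.4% in the C-iPSC libraries, and 91% and 87.6% in the 4F-iPSC libraries. Near the start of Gm10254, at chr3:54811369-54811380, they were 0% and 15.4% in the mESC libraries, 45.3% and 53.4% in the C-iPSC libraries, and 69.6% and 66.4% in the 4F-iPSC libraries, and near that of C330024D21Rik, at chr5:67463930-67463955, they were 5.99% and 8.47% in the mESC libraries, 44% and 57.5% in the C-iPSC libraries, and 75% and 62.9% in the 4F-iPSC libraries. In each of these 5 promoters both 4F-iPSC libraries were above both C-iPSC libraries.

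A single run was read far more deeply in mESCs and C-iPSCs than the rest. Its 3 members at chr13:50021499-50021541, in soft-masked sequence 19241 bp from Gm6554, had 12253 summed reads in mESCs, against 9035 for C-iPSCs and 1061 for 4F-iPSCs. The levels were 7.2% and 8.65% in the mESC libraries, 77.6% and 72.3% in the C-iPSC libraries, and 79.4% and 83.7% in the 4F-iPSC libraries. It is named after its values were seen.

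**Figure D4:**
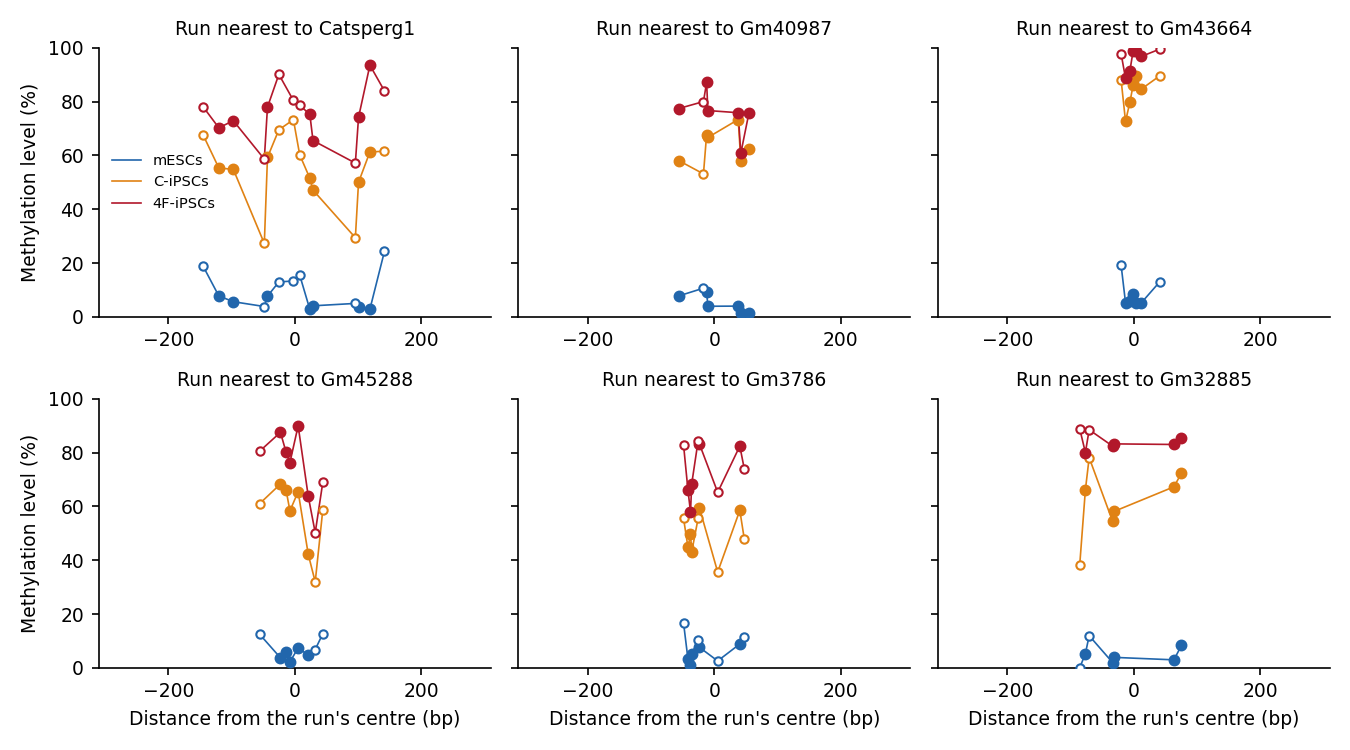
Methylation level of compared CpGs in and around the 6 runs with the most members, against distance from the centre of the run. Lines join the CpGs of a cell type, filled points are members, and open points are other compared CpGs. In the Catsperg1 panel the mESC level of the CpGs shown is at most 24.3%, and in all 6 panels the 4F-iPSC level is above it.

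Of the single members, 121 lay in promoters and 132 in coding exons, and the 10 of these with the most reads had mESC levels from 3.02% to 9.63%. The most deeply read, in the promoter of Gm43399 within Tbx3os1, the antisense gene beside the T-box gene Tbx3, had 6.67% and 14.1% in the mESC libraries, 30.4% and 56.4% in the C-iPSC libraries, and 60% and 49.2% in the 4F-iPSC libraries. Its 95% Wilson interval in mESCs, from 435 reads, was 6.63 to 12%, which spans the limit of the rule. PCR reads are not independent molecules, so this and the other intervals and floors cover counting error only. In a coding exon of Setdb1, a histone H3 lysine methyltransferase that silences retroviral elements, the levels were 8.51% and 7.75% in the mESC libraries, 33.6% and 52.3% in the C-iPSC libraries, and 67.3% and 75.3% in the 4F-iPSC libraries. A CpG in a coding exon of Osbpl10, an oxysterol-binding protein gene, had 6.38% and 13.5% in the mESC libraries, 56.4% and 67.6% in the C-iPSC libraries, and 91.9% and 83.1% in the 4F-iPSC libraries. In the promoter of Akr1e1, an aldo-keto reductase gene, the levels were 0% and 7.29% in the mESC libraries, 42.9% and 54.5% in the C-iPSC libraries, and 68.8% and 24.5% in the 4F-iPSC libraries, and the 4F-iPSC libraries fell to either side of C-iPSCs. Near the start of Insl6, an insulin-like gene of the testis, they were 4.03% and 7.77% in the mESC libraries, 38.7% and 48.2% in the C-iPSC libraries, and 66.8% and 60.1% in the 4F-iPSC libraries. The others were near starts of Gm47518, Gm45089, Adprhl2, Gm28755, and Gm34655.

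Compared CpGs within 100 bp of these 10 that were not members had mean mESC levels from 10.8% to 47.7%. The rule keeps the member low and members are left out of the flanks, so a higher level beside them is no finding. For the Setdb1 CpG they were at 14.9% in mESCs, with 43.3% for C-iPSCs and 69% for 4F-iPSCs. For the Gm45089 CpG the same means were 47.7%, 60.4%, and 75.3%.

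Over all single members, the CpGs beside them were neither unmethylated in mESCs nor fully methylated. Of 1470 single members, 1350 had another compared CpG within 100 bp that was not a member. Members are left out of the flanks, so a neighbor with the same pattern does not enter their mean. The mean level of these flanks was 41.4% and 46.2% in the mESC libraries, 61% and 70.5% in the C-iPSC libraries, and 78.2% and 78% in the 4F-iPSC libraries. The mean difference, mESCs minus iPSCs, was -28.1 percentage points, and -44.5 for single members that met the rule on each strand. Flanks can share reads with the member, which was chosen in the same libraries, so this difference is a description. The mean of the flanks was at 40% or more in mESCs for 761 of the 1350 members (56.4%) and under 10% for 62. For CpGs under 10% in mESCs that were not members, the share with such low flanks was 94.8%. For other CpGs at 40% or more in both iPSC types, flanks averaged 50.5% in mESCs, with 68.5% for C-iPSCs and 80.6% for 4F-iPSCs.

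There were 203 single members without any methylated mESC read, or 13.8% of single members, and without mESC replicate 2 the share was 23.6%, while without C-iPSC replicate 1 it was 9.18%. Of the 174 with flanks, 112 (64.4%) had flanks at 40% or more in mESCs and 12 had flanks under 10%. For the 84 of them with at least 30 mESC reads, the median was 47.5 reads, where a count of 0 allows a level of up to 6.32%. Their flanks had mean levels of 50.7% and 58.3% in the mESC libraries, 69.7% and 79.4% in the C-iPSC libraries, and 84.3% and 83.5% in the 4F-iPSC libraries, and 66 of 82 had flanks at 40% or more in mESCs and 0 under 10%. The part that sequence differences between the strains had in this was not tested.

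Other CpGs inside the runs had a lower mESC mean than iPSC mean, but runs differed in this. In 27 runs, 63 compared CpGs between the first and last member were not members themselves, and their mean level was 18.5% and 20.3% in the mESC libraries, 57.2% and 64.7% in the C-iPSC libraries, and 81.5% and 80.9% in the 4F-iPSC libraries. The mean difference, mESCs minus iPSCs, was -51.6 percentage points. Such CpGs lie between members and can share reads with them, so the sign is not independent of the choice of the members. The value is a description. In the run near AC145590.1 the mESC mean was 35.3% over all compared CpGs and 3.93% over the members, and in that of D430041D05Rik, named after its values were seen, 34% and 1.23%. For CpGs over 300 and up to 500 bp from a member of a run, the mESC libraries were at 32.1% and 33.5%, and the 4F-iPSC libraries at 91.9% and 91.4%. Around single members the levels of all cell types were lower at over 500 and up to 1000 bp, with 27.5% and 30.9% in mESCs and 49.2% and 50.4% in 4F-iPSCs.

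**Figure D5:**
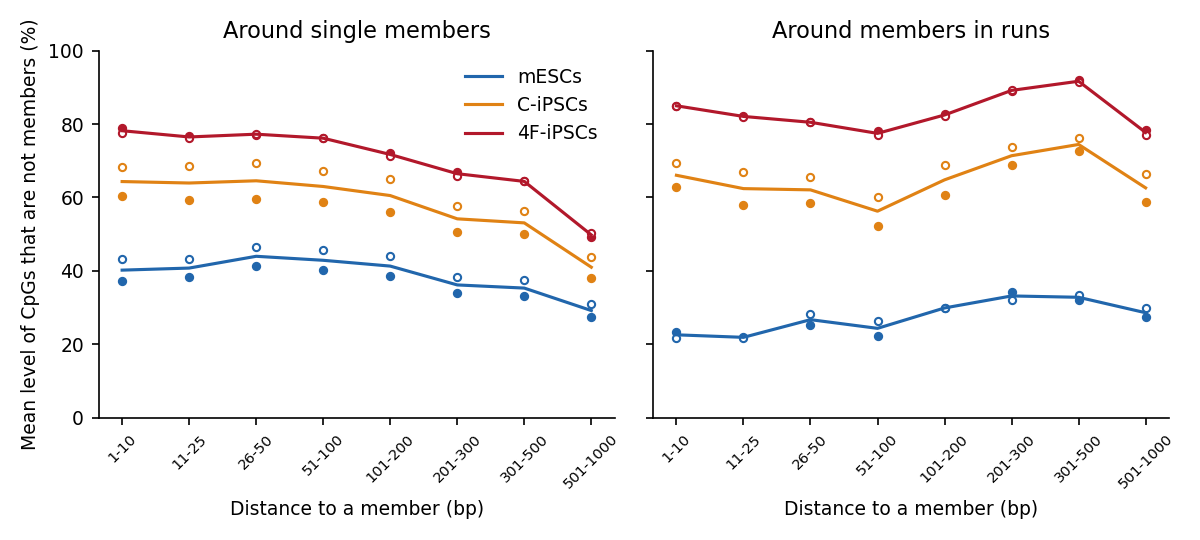
Mean methylation level of compared CpGs that are not members, by distance to a single member or to a member of a run. Filled points are replicate 1, open points replicate 2, and lines join their means. Next to single members, at 1 to 10 bp, mESCs were at 37.3% and 43.1%, and next to members in runs at 23.3% and 21.8%.

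In position, described here without a test, the members were closer to other CpGs methylated in iPSCs than to other CpGs low in mESCs. Introns and intergenic sequence held 79.9% of members, 78.5% of CpGs at 40% or more in both iPSC types, 12.1% of CpGs under 10% in mESCs, and 37.8% of all compared CpGs. Promoters held 183 members, or 9.7%, against 52.8% of all compared CpGs and 82.5% of those under 10% in mESCs. Of CpGs at 40% or more in both iPSC types, 6.56% were in promoters, which is below the share of members. For members that met the rule on each strand the promoter share was 17.4%. Members in runs were in promoters at 21.1% and single members at 8.23%. Of the CpGs low in mESCs and methylated in 4F-iPSCs alone, 15.2% were in promoters. Soft-masked sequence, that is repeats, held 30.8% of members, 45.9% of those in runs, 28.4% of CpGs methylated in both iPSC types, and 13.7% of all. The median number of CpGs in the window of 100 bp to each side was 6 for single members, 11 for members in runs, 5 for CpGs methylated in both iPSC types, and 22 for CpGs under 10% in mESCs.

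Members were seldom the CpG of the MspI site itself. The sequence CCGG, read the same on both strands, held 11.6% of members and 33.9% of all compared CpGs. It held 58% of CpGs at 40% or more in both iPSC types and 8.82% of those under 10% in mESCs. Among CpGs methylated in both iPSC types, 218 of 206814 within CCGG were members, or 1.05 in 1000, and 1669 of 149853 others, or 11.1 in 1000. In introns and intergenic sequence alone the rates were 1.02 and 12 in 1000. The mean mESC levels were 57.6% and 61% in the 2 libraries within CCGG and 43.6% and 53.5% elsewhere, and the 4F-iPSC levels were 84.3% and 86.7% against 82.9% and 81%. Median summed mESC reads were 73 and 116. The cause of the difference was not tested.

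Between the iPSC types, 4F-iPSCs had the higher level at 1722 of 1887 members and the lower at 155, with a median difference of 20.1 percentage points. Averaged over members and libraries, 4F-iPSCs exceeded C-iPSCs by 19.6 percentage points. This is a description, since the rule bounds both levels from below. The C-iPSC libraries also differed, with replicate 2 above replicate 1 at 74.7% of well-read members. How often 4F-iPSCs were higher was not counted over other CpGs. Over all CpGs at 40% or more in both iPSC types, means were 85.5% in 4F-iPSCs and 75.3% in C-iPSCs within CCGG. Elsewhere they were 82% and 69.6%. In Fisher's exact test of the summed reads, with the same limits as between single libraries, 399 members (21.1%) were called higher in 4F-iPSCs, against 1.24% of all compared CpGs. None was lower, against 0.0281% of all. The same summed reads entered the rule, so these counts describe the members, and nothing is read from their excess over all CpGs. Among CpGs at 40% or more in both iPSC types 1.9% were called higher in 4F-iPSCs. The calls covered 20.9% of single members, 24.6% of those in pairs, and 18.9% of those in runs.

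Other tests of this difference used the same reads and are also given as a description. The quasi-binomial model over libraries, with limma's squeezeVar and Benjamini-Hochberg adjusted p under 0.05, called 323 members, 17.1% against a background of 0.589% of CpGs called in either direction. The Cochran-Mantel-Haenszel test with the replicate block called 397 members, against 1.21% of all CpGs. With a difference above 0.2, Fisher's exact test called 868 members, against 6.68% of all CpGs, while among CpGs at 40% or more in both iPSC types 14.2% were called higher. All members called by these 3 were higher in 4F-iPSCs.

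Read depth at members, which entered the rule as the read minimum and as the denominator of each level, is given as a description. Relative to the mean over all compared CpGs, the mean depth at members was 0.705 and 0.719 in the mESC libraries, 0.796 and 0.854 in those of C-iPSCs, and 0.949 and 1.01 in those of 4F-iPSCs. The ratio of mESCs to iPSCs was 0.79, and it moved with the rule. With an mESC limit of 5% it was 0.665, with one of 20% it was 0.957, and for members that met the rule on each strand it was 1.13, on the other side of 1. Of 1887 members, 685 had at least 5 reads on each strand in every cell type, and 213 of these (31.1%) met the rule on both strands. At the 685, the median difference between strands was 4.67 percentage points in mESCs, with 9.85 for C-iPSCs and 6.49 for 4F-iPSCs.

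In promoters of listed gene groups low counts are no result about a group, since the share of members over all promoter CpGs was 0.0323%. Promoters of the 48 listed imprinted genes, which do not include Zfp264 or Zim3, had 0 members among 1322 compared CpGs, Hox genes 0 of 1818, clustered protocadherins 0 of 273, and pluripotency genes 0 of 656. Zinc finger genes had 3 of 10434, or 0.0288%, all in Zfp264, and 16 of 13559 compared CpGs in gene bodies, or 0.118%, against 0.132% over all gene bodies. Germline genes had 1 of 477, in the promoter of Hormad2, a protein of the meiotic chromosome axis, where the levels were 8.7% and 6.25% in the mESC libraries, 47.1% and 59.6% in the C-iPSC libraries, and 71.9% and 66.2% in the 4F-iPSC libraries. Over the 19 compared CpGs of that promoter the means were 8.78%, 26.2%, and 43.5% in mESCs, C-iPSCs, and 4F-iPSCs.

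Olfactory and vomeronasal receptor genes had 4 of 368 promoter CpGs, 1.09%, against 0.0323% of all promoter CpGs. These promoters were methylated in general, with means of 39.1% and 43% in the mESC libraries, 50.9% and 58.6% in the C-iPSC libraries, and 65.5% and 66.3% in the 4F-iPSC libraries, and the higher share was not tested. The 4 CpGs lay in Olfr1447, Olfr282, Olfr30, and Vmn2r-ps26, which are named after their values were seen. The CpG of Vmn2r-ps26 had 1.06% and 1.69% in the mESC libraries, 54.7% and 45.2% in the C-iPSC libraries, and 95.1% and 94.8% in the 4F-iPSC libraries. That of Olfr30 had 7.29% and 15.2% in the mESC libraries, 45.1% and 50.7% in the C-iPSC libraries, and 69.2% and 63.3% in the 4F-iPSC libraries, while those of Olfr1447 and Olfr282 rested on 15 and 11 mESC reads. In gene bodies, the imprinted list had 2 single members among 1968 compared CpGs, or 0.102%, near the 0.132% over all gene bodies, and they are also named afterwards. The CpG in a coding exon of Cdh15, a cadherin gene, had 0% and 23.8% in the mESC libraries, 72.6% and 85.9% in the C-iPSC libraries, and 91.9% and 73.6% in the 4F-iPSC libraries, and the CpG in an intron of Impact, a regulator of translation, had 0% and 3.7% in the mESC libraries, 49.1% and 57.4% in the C-iPSC libraries, and 87.8% and 98% in the 4F-iPSC libraries. The germline list had 2 among 594, or 0.337%, the Hormad2 CpG and 1 in an intron of Asz1, a gene of the piRNA pathway. The Asz1 CpG had 0% and 20% in the mESC libraries, 73.7% and 50% in the C-iPSC libraries, and 69.9% and 75.9% in the 4F-iPSC libraries. It rested on 15 mESC reads.

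Promoters of cell type markers were low in every library as lists. Over the 263 compared promoter CpGs of 8 of the 10 pluripotency markers the mean level was 3.32% and 3.78% in the mESC libraries, 3.8% and 4.3% in the C-iPSC libraries, and 4.57% and 6.66% in the 4F-iPSC libraries. For 131 CpGs of 5 of the 10 fibroblast and feeder markers it was 2.7% and 2.04% in the mESC libraries, 2.71% and 3.25% in the C-iPSC libraries, and 2.88% and 4.55% in the 4F-iPSC libraries. In the Pou5f1 promoter, with 7 compared CpGs, it was 8.07% and 15.6% in the mESC libraries, 6.26% and 7.65% in the C-iPSC libraries, and 12.8% and 20.8% in the 4F-iPSC libraries. In the Nanog promoter, with 2 compared CpGs, it was 0% and 6.52% in the mESC libraries, 11.3% and 7.85% in the C-iPSC libraries, and 12.1% and 11.4% in the 4F-iPSC libraries. The promoters of Dppa3 and Tdgf1 had no compared CpG. Among fibroblast and feeder markers, Col1a2 and Thy1, with 3 compared promoter CpGs each, were above the mean of their list. Col1a2 had 6.47% and 13.5% in the mESC libraries, 12.9% and 14.8% in the C-iPSC libraries, and 15.3% and 20.9% in the 4F-iPSC libraries. Thy1 had 7.14% and 11.1%, 11.7% and 13.9%, and 15.3% and 14.6% in the same order. Differences between the libraries at these promoters were not tested, nor was the part of feeder DNA in the levels.

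Members occurred on every autosome. Per 1000 CpGs at 40% or more in both iPSC types, there were between 3.33 on chromosome 16 and 7.8 on chromosome 7.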

How the data were processed

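RRBS reads of 6 libraries, 2 each of mESCs, C-iPSCs, and 4F-iPSCs, were processed by the authors, who cut DNA with MspI, aligned reads to mm10 with BSMAP 2.90, as the submitters' processing notes say, kept uniquely mapped pairs, and called CpGs with MOABS. The deposited tables give a read count and a methylated read count per CpG, for both strands and for each. The deposited fraction of methylated reads served as a check of them. Libraries held 75077465 and 53694199 reads on CpGs for mESCs, 91533371 and 84792206 for C-iPSCs, and 96534037 and 94215636 for 4F-iPSCs. Positions were checked against GRCm38, and genes came from GENCODE. A promoter was the sequence within 1 kb of a transcript start. Members and lists were chosen with earlier results of these data known.

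Calls between iPSC types used Fisher's exact test (two-sided), with a quasi-binomial model (limma 3.58.1), a Cochran-Mantel-Haenszel test, other limits, and left-out libraries as alternatives. Differences between cell types at flanks, inside runs, and in read depth were put to two-sided exact permutation tests over libraries, which are not read, since members were chosen in the same libraries. Tests across CpGs were checked on simulated data. Python 3.11.15 with scipy 1.17.1 and R 4.3.3 were used. Named were the 15 runs with the most members (ties by reads), up to 15 other runs in promoters, the 10 single CpGs in promoters or coding exons with the most reads, the 3 CpGs to each side nearest the limits, and imprinted, germline, Hox, protocadherin, and pluripotency genes with a member in the promoter. RNA-seq was not used here.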

Additional observations from a re-analysis of the deposited data

Results flagged for a closer look

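Chromosome X was outside the rule, which takes autosomes only, and it held the same pattern. Of 31255 CpGs there with 10 or more summed reads per cell type, 57 were under 10% in mESCs and at 40% or more in both C-iPSCs and 4F-iPSCs. Among them were 44 single CpGs and 3 runs. Per 1000 CpGs methylated in both iPSC types, the rate was 3.76 on chromosome X and 5.29 on the autosomes. All cells were male, and the difference between the rates was not tested. Groups of 2 libraries were too small to mark a library as far from the others.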

How the results depend on the processing

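The number of members followed the limits. An mESC limit of 0.05 gave 858 members, 738 single members, and 14 runs with 46 CpGs, and one of 0.2 gave 9912 members, 6517 single members, and 384 runs with 1465 CpGs. An iPSC limit of 0.5 gave 941 members, 716 single members, and 30 runs with 111 CpGs, and one of 0.3 gave 3840 members, 2838 single members, and 126 runs with 444 CpGs. The rule met on each strand gave 213 members, 134 single members, and 10 runs with 37 CpGs. Runs of at least 5 members numbered 9 with 48 CpGs, and runs of consecutive compared CpGs 31 with 105. Without 1 library there were 1407 to 3512 members, 1111 to 2694 single members, and 35 to 90 runs with 130 to 330 CpGs, the highest without mESC replicate 2 in each case.

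Members called between 4F-iPSCs and C-iPSCs follow in the same order of limits, 0.05, 0.2, 0.5, 0.3, and each strand. They numbered 259 of 858, 755 of 9912, 154 of 941, 678 of 3840, and 26 of 213. With a difference above 0.2 they numbered 868 of 1887, against 6.68% of all compared CpGs. Without 1 library they ranged from 314 of 1518, without mESC replicate 1, to 476 of 3512, without mESC replicate 2. In the main setting 1.24% of all compared CpGs were called higher in 4F-iPSCs and 0.0281% lower. The number of members differed between settings, so nothing is read from these counts. The share of CpGs found again in replicates 2 was 19.9% with 0.2, 29.9% with 0.5, 24% with 0.3, 10.2% on each strand, and 34.2% with the replicates exchanged, and it could not be computed without a library.

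The share of members in promoters was 8.28% with 0.05, 12.2% with 0.3, 17.4% on each strand, 7.15% for promoters of 0.5 kb to each side, and 9.99 to 11.3% without 1 library. The share in soft-masked sequence was 24.1% with at least 20 summed reads, 22.7% with at least 10 reads in each library, 27.6% with 0.05, 25% with 0.2, 37.2% with 0.5, 27.3% with 0.3, 25.8% on each strand, and 24.4 to 31.1% without 1 library. The share of single members with no methylated mESC read was, for the same settings, 9.8%, 8.48%, 29.3%, 2.76%, 15.9%, 10.6%, 8.96%, and 9.18 to 23.6%.

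The mean difference between 4F-iPSCs and C-iPSCs at members was 14.7 to 22.3 percentage points without 1 library, lowest without C-iPSC replicate 1. The relative depth of mESCs was 1.13 on each strand, the reverse of the main value, and 0.765 to 0.854 without 1 library. Differences at flanks and inside runs were negative for mESCs under every alternative run, and without 1 library they ranged from -31.6 to -25.6 and from -54.1 to -47 percentage points. With 1 mESC library left these are values with no test. Where the rule was met on each strand, the differences were -44.5 at flanks and -64.1 inside runs. Inside runs the difference was -38.6 with an mESC limit of 0.2 and -38.8 with an iPSC limit of 0.3. The cause of these changes was not tested. Of 208 alternative values, 140 were counted as unchanged, which is no measure of stability. Some alternatives left a value identical. The share of CpGs found again was 27.26% of 2175 in the main setting, with both higher read minimums, and with the mean of replicate levels. Inside runs, differences from -38.6 to -64.1 were all counted as unchanged, and their sign is not independent of the choice of members.

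The replicate numbers are shared between the cell types, but nothing says that they pair the libraries. With the replicate block, 397 members were called in place of 399. Deviations of replicate 1 from replicate 2 correlated across 934415 CpGs, which are not independent, with r = 0.118 between C-iPSCs and 4F-iPSCs, 0.0434 between mESCs and C-iPSCs, and -0.229 between mESCs and 4F-iPSCs.

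A member read 10 times in a cell type has a level in steps of 10 percentage points, so that 1 read can decide its place at a limit. No permutation test between 2 and 4 libraries can go below p = 0.133, so these tests say nothing of stability.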

Other observations

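Pairs of members, neither single nor in runs, had levels between those of the other classes except in mESC replicate 2. Their 232 CpGs had median levels of 1.42% and 8.7% in mESC replicates 1 and 2, 48.7% and 57.1% in those of C-iPSCs, and 82.2% and 79.5% in those of 4F-iPSCs. In promoters were 9.91% of them and in soft-masked sequence 34.5%. CpGs beside them had mean levels of 32.9% and 38.9% in the mESC libraries, 60.9% and 70.0% in the C-iPSC libraries, and 80.4% and 80.2% in the 4F-iPSC libraries.

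The 144 CpGs low in mESCs and methylated in C-iPSCs alone were read less, with medians of 25 summed reads in mESCs, with 24 in C-iPSCs and 31.5 in 4F-iPSCs, against 82, 99, and 131 for the 4603 methylated in 4F-iPSCs alone.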
